A study of Mus musculus with 6 samples.

Results

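The calcium/calmodulin-dependent kinases are enzymes that turn a rise in cytosolic calcium into phosphorylation of other proteins. The 8 genes described here were taken by symbol from an isoform table of mouse neural stem cells: the CaMKII subunits Camk2a, Camk2b, Camk2d and Camk2g, the single-subunit kinases Camk1 and Camk4, and the upstream kinases Camkk1 and Camkk2. They are 8 of 27694 genes and hold 68 of the 95506 isoforms kept in the gene sums. The family was chosen by its gene names, but selected on FPKM differences between the groups that were already known, so its own values are given as a description. Where members are counted among the calls of a fit over all genes, the count is set beside that of all genes and nothing is read from it.

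RNA was sequenced from 6 untreated neural stem cell cultures of the C57/Bl6 strain, which are cells that divide and can form neurons and glia. Wild-type cultures (3, WT) were set beside vimentin knockout ones (3, KO). All were kept in serum-free medium with B27, FGF-2 and EGF, and any grown as monolayers also received heparin, though the labels do not say which. Ribosomal RNA was removed before strand-specific paired-end libraries were made. How the knockout allele was made, and whether each culture is a separate animal, is not in the labels, so the p-values cover nothing beyond the variation among these samples, part of which may be technical.

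Calcium entering a cell binds calmodulin, and calcium-loaded calmodulin displaces the autoinhibitory segment of each of these kinases. CaMKII subunits assemble into large ring-shaped holoenzymes of mixed composition, and they phosphorylate a threonine in each other's autoinhibitory segment, which keeps the kinase active after calcium has fallen. CaMKK1 and CaMKK2 phosphorylate the activation loop of CaMKI and CaMKIV, and CaMKK2 also phosphorylates AMP-activated kinase. In the brain CaMKII is best known for its role at neuronal synapses, where the alpha and beta subunits predominate, and its beta subunit binds filamentous actin. Vimentin, the intermediate filament protein targeted in this study, is a known substrate of CaMKII.

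The stretch of coding sequence that carries the CaMKII autophosphorylation threonine is shown first, for Camk2b, Camk2d and Camk2g. Camk2a was not included, and no other stretch was compared between the genes. Each line gives the codon for threonine 287, counted from the start codon, in capitals and 7 codons on either side, from the coding isoform with the highest mean level in these libraries.
Camk2b (chromosome 11, minus strand): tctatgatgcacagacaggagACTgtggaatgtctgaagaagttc
Camk2d (chromosome 3, plus strand): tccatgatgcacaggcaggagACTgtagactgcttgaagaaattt
Camk2g (chromosome 14, minus strand): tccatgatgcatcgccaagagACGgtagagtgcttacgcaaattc
Of these 45 bases, 37 were the same in Camk2b and Camk2d, 34 in Camk2d and Camk2g, and 30 in Camk2b and Camk2g. The sequences are those of the GENCODE M21 transcripts (GRCm38), and exon coordinates are from the same release.

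Most alternative coding exons of Camk2b lie further along, in the linker between the kinase and the association domain. A 33-base exon found only in Camk2b-208 lies before the stretch shown. The isoforms Camk2b-201 and Camk2b-205, which had the highest Camk2b levels here, differ by 258 coding bases (1509 and 1767), all in 2 exons that only Camk2b-205 has. Both exons are 129 bases long, and the results on isoforms separate those with and without them.

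Library facts that bear on the kinases come before the values. Depth, worked out from coverage, was 28.4 to 36.2 M reads of 150 bases per library. Levels are in FPKM, fragments scaled to transcript length and library size, and 3 reads on 2000 bases of transcript correspond to 0.0414 to 0.0529 FPKM, a limit that covers counting error only. Vim RNA was higher, not lower, under the KO label: its mean was 185 ± 6.08 FPKM under the WT label and 669 ± 56.1 FPKM under the KO label (SD, n = 3 each). The labels do not say what the knockout allele does to Vim RNA, and a swap of labels was not tested. Groups are therefore named by label only, and every direction below rests on these labels. WT 2 stood apart, since 16.4% of its FPKM lay in intronic, intergenic, antisense or run-on isoforms and the other 5 libraries had 3.99% to 5.49%. Isoforms of that kind named for the 8 kinases, which were left out of the gene sums, held 28.5 FPKM in WT 2 and 1.14 to 4.06 FPKM elsewhere. The log2 fold changes of Camk2d and Camkk2 and some counts of calls are therefore also given without WT 2.

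Marker genes were compared with the label of the cells. The 8 stem cell and radial glial markers summed to 866 to 1104.5 FPKM (WT label) and 1088 to 1183 FPKM (KO label), which overlapped. Slc1a3 (376 to 430 FPKM) and Fabp7 were high in every library. Fabp7 lay at 358 to 547 FPKM (WT label) and 660 to 701 FPKM (KO label), without passing. Pax6 was between 9.96 and 14.2 FPKM, Nes between 19.6 and 47.2 FPKM and Sox9 between 6.13 and 65.5 FPKM. Hes1 was at 5.55 to 6.52 FPKM (WT label) and 6.56 to 18.8 FPKM (KO label), also without passing. Sox2 was listed at 53.3, 0 and 28.4 FPKM in WT 1 to 3 and at 0 in KO 1 to 3, and Prom1 was at or near 0 throughout. The assembled locus of Sox2 held 2 other genes. Some abundant genes also dropped in 1 library, such as Aldoc (6.40 FPKM in WT 1, 324 and 488 FPKM in WT 2 and 3). Another was Gja1 (0.367 FPKM in WT 3, 33.5 and 36.3 FPKM in WT 1 and 2). Whether a listed 0 for Sox2 means absent RNA was not tested. The 7 neuronal markers in the table summed to 69.7 to 182 FPKM (WT label) and 91.4 to 140 FPKM (KO label), nearly all of it Map2 and Tubb3. Of the markers of mature neurons, Syp had group means of 3.29 FPKM (WT label) and 3.21 FPKM (KO label). Rbfox3, Snap25 and Syt1 had group means of 0.0324 to 0.267 FPKM. Dcx had means of 0.558 FPKM (WT label) and 0.902 FPKM (KO label). The 6 markers present of the oligodendrocyte lineage summed to 515 to 577 FPKM (WT label) and 324 to 372 FPKM (KO label), with 2 of the 4 tested called lower. The 6 astrocyte markers were mixed, and their sums overlapped (185 to 638 and 432 to 482 FPKM). Gfap and Aqp4 were called lower under the KO label, Slc1a2 lay higher in each library of that label (means of 56.6 and 74.3 FPKM) without passing, and S100b, Aldoc and Gja1 overlapped. The part of these differences in the kinase values was not tested. Microglial markers summed to at most 3.36 FPKM, endothelial ones to at most 0.654 FPKM and fibroblast or mural ones to at most 0.207 FPKM.

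Among the 8 kinase genes, Camk2b and Camk1 had the highest RNA levels in each group and were also the genes whose levels were higher in every library labelled KO. Camk2b was 2.66-fold higher and Camk1 1.73-fold higher on the FPKM scale. Camk2d was the reverse case, with a mean under the KO label that was 0.509 times the mean under the WT label. The levels of Camk2g overlapped between the groups. In bulk RNA, a change in the number of cells that express a gene and a change in RNA per cell cannot be told apart.

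Of the 8 genes, 6 had a mean of at least 1 FPKM and entered a limma fit of log2(FPKM + 1) over 12080 genes, and Camk2a and Camk4 did not. In that fit, with a Benjamini-Hochberg adjusted p under 0.05, 2 of the 6 were called higher in the libraries labelled KO, none lower (1 with an unadjusted p under 0.05 in limma) and 4 were not called. Over all genes tested, 6.9% were called, 3.65% higher and 3.25% lower. Of the 6, 3 had groups that did not overlap, 2 higher and 1 lower, where 16.9% of all tested genes were higher without overlap and 16.4% lower. These counts are no evidence about the family, which was chosen with this contrast known. The median log2 fold change of the 6 was 0.40, against -0.02 over all genes tested.

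**Figure D1:**
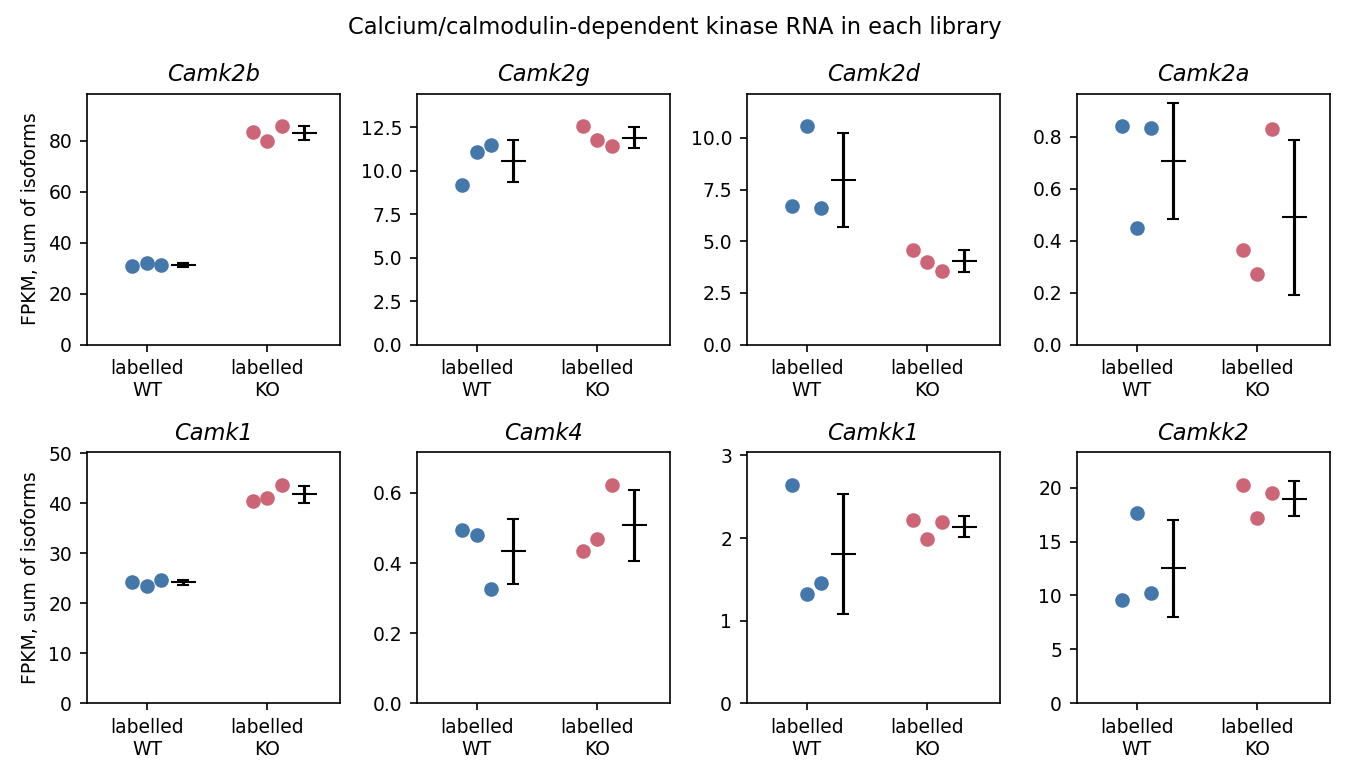
FPKM of each kinase gene, summed over its kept isoforms, in the 3 libraries labelled WT (blue) and the 3 labelled KO (red), with the mean and SD beside the points and a separate linear axis from 0 for each gene. Camk2b and Camk1 lie higher in each library labelled KO and Camk2d lies lower, while the other 5 genes overlap between the groups.

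Camk2b encodes the beta subunit of CaMKII and lies on the minus strand of chromosome 11 (5969644 to 6065748). Actin binding by the isoforms found here was not tested. Its summed level was 30.7, 32.0 and 31.1 FPKM in WT 1 to 3 and 83.6, 80.0 and 85.7 FPKM in KO 1 to 3. Libraries of the same label lay close together and the groups were far apart. The means were 31.3 ± 0.665 and 83.1 ± 2.90 FPKM (SD, n = 3), and the log2 fold change on FPKM + 1 was 1.38 (SE 0.07). Between 1717 and 5505 reads of 150 bases per library were assigned to it, estimated from the coverage. The median log2 fold change of the 964 tested genes on chromosome 11 was -0.02. The summed neuronal markers overlapped between the groups, and of the 3 tested none was called by limma (0 with an unadjusted p under 0.05). Snap25, too low to be tested, was higher in each library labelled KO (0.186 to 0.331 FPKM) than in any labelled WT (at most 0.0863 FPKM). The part of neuronal cells in the Camk2b value was not tested.

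Camk2g and Camk2d encode the gamma and delta subunits, which are found in many tissues. Camk2g on chromosome 14 (20734875 to 20794089) had 9.18, 11.1 and 11.5 FPKM in WT 1 to 3 and 12.6, 11.7 and 11.4 FPKM in KO 1 to 3. The groups overlapped, with means of 10.6 ± 1.23 and 11.9 ± 0.585 FPKM (SD, n = 3) and a log2 fold change of 0.16 (SE 0.12). Camk2d on chromosome 3 (126596302 to 126846326) had 6.72, 10.6 and 6.60 FPKM in WT 1 to 3 and 4.60, 3.98 and 3.56 FPKM in KO 1 to 3. All libraries labelled KO were below those labelled WT, and WT 2 was well above the other two. The means were 7.96 ± 2.25 and 4.05 ± 0.521 FPKM (SD, n = 3), and the log2 fold change was -0.80 (SE 0.20), or -0.61 without WT 2. Left-out isoforms in Camk2d introns held 13.5 FPKM in WT 2 and 0.522 to 1.05 FPKM in the other libraries, and their part in the Camk2d value of WT 2 was not tested.

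Camk2a encodes the alpha subunit, which is abundant in forebrain neurons, and was among the lowest of the 8 genes here. It lies on chromosome 18 (60925618 to 60988152). Its level was 0.841, 0.448 and 0.833 FPKM in WT 1 to 3 and 0.366, 0.271 and 0.832 FPKM in KO 1 to 3, and the groups overlapped. The number of reads behind these values was estimated at 18 to 150 per library. Left-out intronic isoforms named for Camk2a held 8.24 FPKM in WT 2 and at most 2.70 FPKM in the others, which is more than the exonic sum in WT 1, WT 2, KO 1 and KO 3.

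The CaMKII genes were also compared as shares of their common sum, since their subunits assemble together. That sum was 47.4, 54.1 and 50.0 FPKM in WT 1 to 3 and 101, 96.0 and 102 FPKM in KO 1 to 3. Camk2b made up 64.7%, 59.2% and 62.2% of it in WT 1 to 3 and 82.7%, 83.3% and 84.4% in KO 1 to 3. The share of Camk2b was thus higher in each library labelled KO (83.5% ± 0.886 against 62.0% ± 2.77, SD, n = 3). Camk2g, whose level overlapped between the groups, made up 20.9% ± 1.83 (WT label) and 11.97% ± 0.631 (KO label). Camk2d made up 15.6% ± 3.42 and 4.07% ± 0.525. The share of Camk2a was at most 1.77% in any library. These are shares of RNA, per length of transcript, and say nothing of protein.

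**Figure D2:**
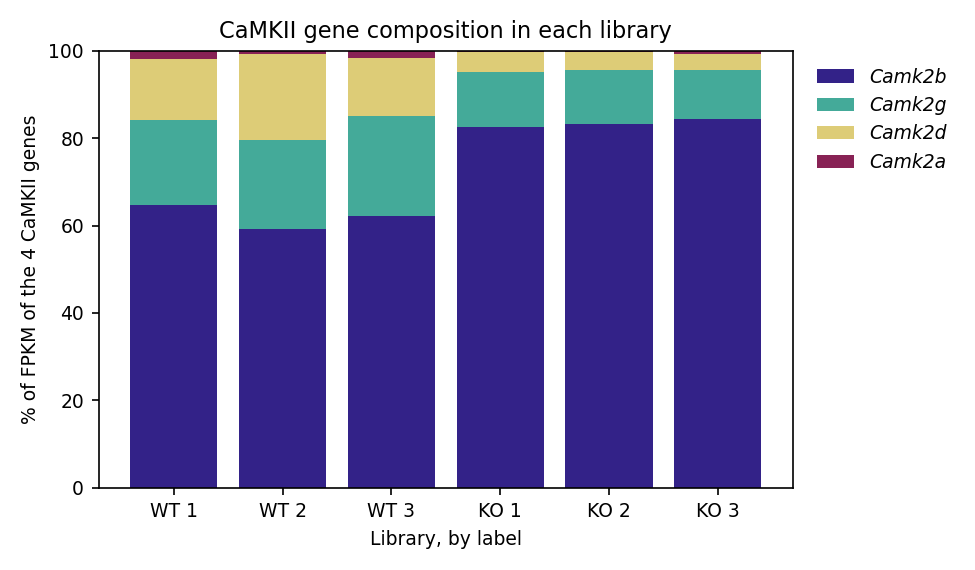
Share of each CaMKII gene in the summed FPKM of Camk2a, Camk2b, Camk2d and Camk2g, as stacked percentages for each library. Camk2b holds 59.2% to 64.7% in the libraries labelled WT and 82.7% to 84.4% in those labelled KO.

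Camk1 encodes CaMKI, a cytosolic kinase activated by the CaMKK enzymes. It lies on the minus strand of chromosome 6 (113334098 to 113343984) and had 24.3, 23.6 and 24.7 FPKM in WT 1 to 3 and 40.6, 41.1 and 43.7 FPKM in KO 1 to 3. The groups were separate and each was narrow, with means of 24.2 ± 0.567 and 41.8 ± 1.71 FPKM (SD, n = 3). The log2 fold change was 0.77 (SE 0.08). Chromosome 6 as a whole lay higher under the KO label: the median log2 fold change of its 604 tested genes was 0.27. The part of this in the Camk1 value was not tested.

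The isoforms of Camk1 behaved less evenly than the sum. Its only annotated coding isoform in the table, ENSMUST00000032409, had 20.0, 17.2 and 20.4 FPKM in WT 1 to 3 and 16.2, 29.2 and 30.04 FPKM in KO 1 to 3, so that KO 1 was the lowest of all. An assembled isoform of 11 exons and 2945 bases, MSTRG.41819.1, was listed at 0, 0 and 1.46 FPKM in WT 1 to 3 and at 9.56, 5.91 and 5.83 FPKM in KO 1 to 3. ENSMUST00000149497, an annotated transcript with a retained intron, had 9.08 FPKM in KO 1 and 0.417 to 3.43 FPKM in the other 5 libraries. The coding isoform accounted for 79.4% ± 5.50 of the Camk1 sum under the WT label and 59.9% ± 17.3 under the KO label (SD, n = 3). With reference transcripts only, the log2 fold change fell to 0.53, and with the highest isoform only to 0.33.

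Camk4 encodes CaMKIV, a mainly nuclear kinase that phosphorylates the transcription factor CREB. On chromosome 18 (32939041 to 33195767), its single kept isoform had 0.493, 0.479 and 0.327 FPKM in WT 1 to 3 and 0.433, 0.468 and 0.623 FPKM in KO 1 to 3. The groups overlapped. Because the transcript is 12331 bases long, these low values still rested on an estimated 146 to 250 reads per library. Left-out isoforms named for Camk4 held 2.06 FPKM in WT 2, 0.610 FPKM in KO 1 and 0.650 FPKM in KO 3, more than the kept isoform there. In the other libraries they held 0.160 to 0.372 FPKM.

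Camkk1 and Camkk2 encode the kinases upstream of CaMKI and CaMKIV. Camkk1 on chromosome 11 (73019008 to 73042073) had 2.64, 1.32 and 1.46 FPKM in WT 1 to 3 and 2.22, 1.99 and 2.20 FPKM in KO 1 to 3, and the groups overlapped. Its log2 fold change was 0.19 (SE 0.22). The isoform that carried this value changed from library to library. A coding isoform of 13 exons, ENSMUST00000145834, had 2.05 FPKM in WT 1, 77.7% of the sum there, and was listed at 0 in the other libraries. The other coding isoform, ENSMUST00000092937, was listed at 0, 0 and 1.17 FPKM in WT 1 to 3 and at 2.15, 1.13 and 2.19 FPKM in KO 1 to 3, and the retained-intron transcript ENSMUST00000155720 made up all of the sum in WT 2. Left-out isoforms named for Camkk1 held 2.66 FPKM in WT 2, more than the kept sum there, and at most 0.652 FPKM in the other libraries.

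Camkk2 on chromosome 5 (122718632 to 122779443) had 9.61, 17.7 and 10.2 FPKM in WT 1 to 3 and 20.3, 17.2 and 19.5 FPKM in KO 1 to 3. WT 2 lay within the range of the libraries labelled KO, and the other 2 libraries labelled WT lay below it. The means were 12.5 ± 4.49 and 19.0 ± 1.63 FPKM (SD, n = 3), with a log2 fold change of 0.61 (SE 0.23). Without WT 2, the library that overlapped, it was 0.87. In WT 2, 52.9% of the Camkk2 sum came from assembled isoforms, against 11.7% to 35.2% in the other libraries. Its leading isoform, ENSMUST00000200109, had 4.79, 4.56 and 6.72 FPKM in WT 1 to 3 and 9.02, 4.92 and 11.6 FPKM in KO 1 to 3, so the groups overlapped.

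FPKM is scaled to transcript length, so levels can be ordered between the genes. In the libraries labelled WT the order was Camk2b, Camk1, Camkk2, Camk2g, Camk2d, Camkk1, Camk2a and Camk4. The ranges of Camkk2 and Camk2g overlapped there, as did those of Camk2g and Camk2d and those of Camk2a and Camk4. In the libraries labelled KO the order was the same up to Camkk1, with Camk4 before Camk2a. There the ranges of Camk4 and Camk2a overlapped, and no other pair of neighbours did.

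Camk2b was described isoform by isoform, because it held the largest fold change among the kinases. The table kept 13 Camk2b isoforms, 12 of them annotated and 9 of these protein-coding. Coding isoforms held 90.1% ± 5.79 (WT label) and 95.5% ± 0.821 (KO label) of the Camk2b FPKM (SD, n = 3). In GENCODE M21, 16 coding exons are shared by all 9, and 9 exon forms are alternative.

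Camk2b-201 (ENSMUST00000002817, 19 exons) was the leading isoform in every library. It had 24.9, 21.8 and 23.6 FPKM in WT 1 to 3 and 65.8, 56.8 and 64.3 FPKM in KO 1 to 3, and the groups were separate. Its share of the gene was 81.2%, 68.2% and 75.7% in WT 1 to 3 and 78.7%, 71.0% and 75.1% in KO 1 to 3. The mean shares were 75.0% ± 6.48 and 74.9% ± 3.84, so the isoform kept its place while its level was higher in the libraries labelled KO.

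Camk2b-205 (ENSMUST00000093355, 21 exons), which adds the pair of 129-base exons, came next among the annotated isoforms. It had 2.03, 4.27 and 2.61 FPKM in WT 1 to 3 and 10.7, 12.02 and 12.6 FPKM in KO 1 to 3. Its level was higher in every library labelled KO, by 3.97-fold on the means. As a share of the gene it was 6.61%, 13.3% and 8.38% in WT 1 to 3 and 12.8%, 15.0% and 14.7% in KO 1 to 3. The share in WT 2 overlapped KO 1, and those in WT 1 and WT 3 lay below every library labelled KO. The exon of the pair that Camk2b-205 shares with Camk2b-202 alone was in 7.49% to 16.4% (WT label) and 13.9% to 16.5% (KO label) of the coding Camk2b FPKM.

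Other alternative exons were either in nearly all of the coding FPKM or in little of it. The 33-base exon of Camk2b-208 was in 0.0005% to 0.862% (WT label) and 0.113% to 3.32% (KO label). The 75-base exon at 5987057 to 5987131 was in 0.343% to 1.11% (WT label) and 0.642% to 2.81% (KO label). The 72-base exon at 5982501 to 5982572 was in 97.6% or more of the coding FPKM in each library. The longer, 41-base form of the exon before it, which ends at 5982761, was in 94.9% to 98.6%, and the 38-base form in the rest. The 45-base exon at 5981070 to 5981114 was in 1.03% to 6.83%. The 114-base exon at 5978399 to 5978512, found only in the longest isoform Camk2b-202, was in 0.227% to 0.381% (WT label) and 0.642% to 0.739% (KO label). Camk2b-202 itself was at 0.0667 to 0.102 FPKM (WT label) and 0.517 to 0.564 FPKM (KO label), where 3 reads on a transcript of the length of Camk2b-201 are worth 0.0443 to 0.0565 FPKM. Reads that fit several isoforms are divided among them by estimate, and these shares carry that uncertainty beside the spread shown.

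**Figure D3:**
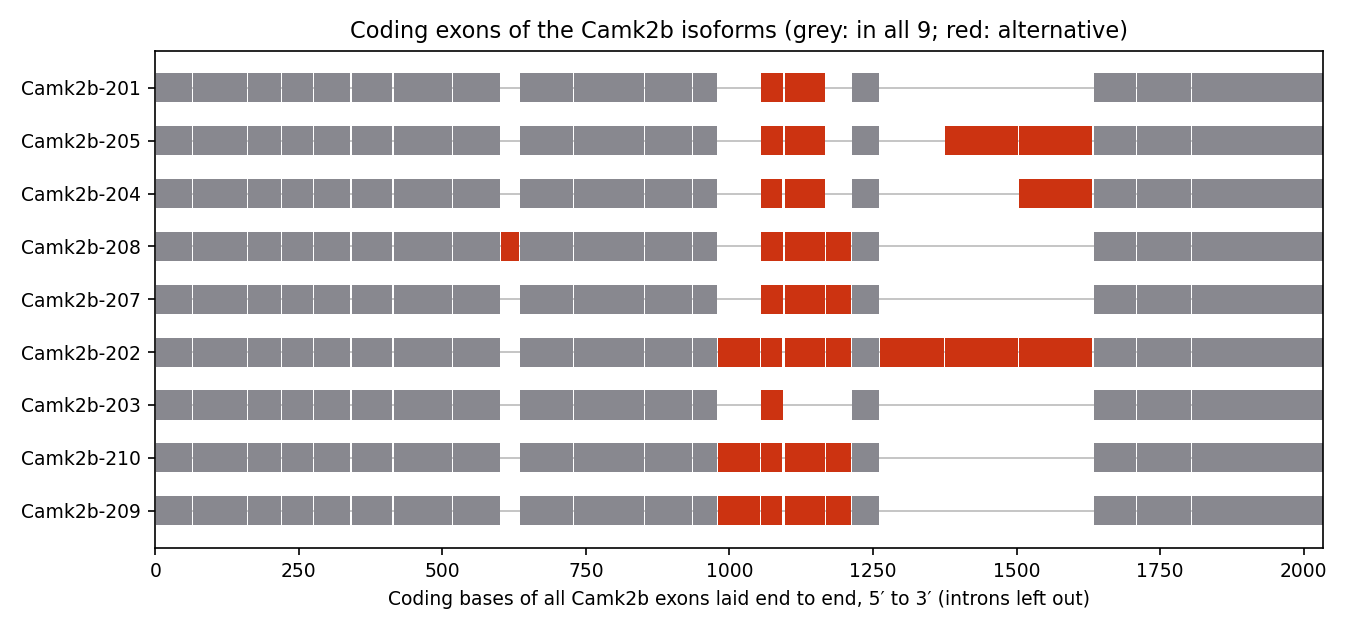
Coding exons of the 9 annotated coding Camk2b isoforms, drawn to length in bases along the sum of all coding exons, with exons shared by all in grey and alternative exons in red and the highest isoform at the top. Camk2b-205 has 2 exons of 129 bases that Camk2b-201 lacks, and Camk2b-202 has all 3 exons of that stretch.

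The remaining Camk2b isoforms were low. The assembled MSTRG.6759.13, of 9 exons, had 1.53, 5.11 and 0.243 FPKM in WT 1 to 3 and 1.21, 1.92 and 1.89 FPKM in KO 1 to 3. It held 16.0% of the Camk2b sum in WT 2. Camk2b-208 had 2.17 and 2.53 FPKM in KO 1 and KO 2 but 0.0920 FPKM in KO 3, and at most 0.253 FPKM in WT 1 to 3. Camk2b-212, a transcript of 3 exons annotated as not coding, had 0.0638, 0.156 and 0.526 FPKM in WT 1 to 3 and 1.11, 0.691 and 1.69 FPKM in KO 1 to 3, without overlap. The others that averaged 0.1 FPKM or more in a group did not pass 2.27 FPKM in any library.

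**Figure D4:**
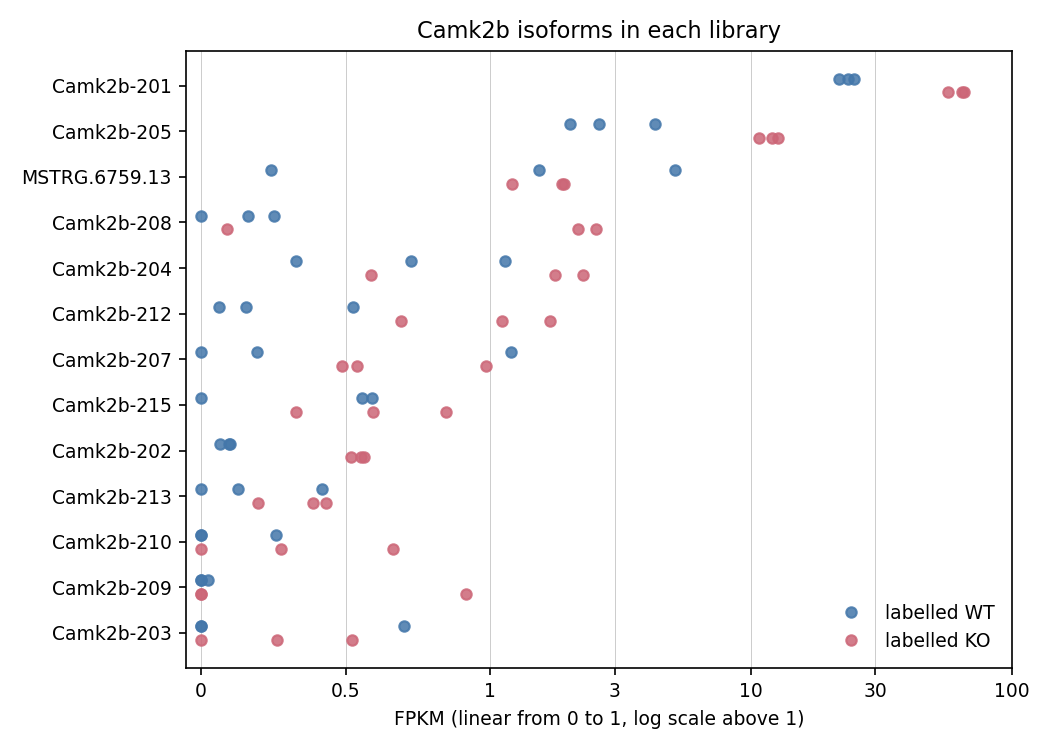
FPKM of each Camk2b isoform that averaged 0.1 FPKM or more in a group, 1 point per library, on an axis that is linear from 0 to 1 and logarithmic above 1. Camk2b-201, Camk2b-205, Camk2b-202 and Camk2b-212 lie higher in all 3 libraries labelled KO than in any labelled WT, and the other 9 isoforms overlap.

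The other CaMKII genes had mixed isoforms too. For Camk2g, Camk2g-202 had 3.93, 5.22 and 6.05 FPKM in WT 1 to 3 and 5.88, 6.93 and 5.59 FPKM in KO 1 to 3. A 69-base coding exon at 20745792 to 20745860 was in 49.8% to 75.2% of the annotated coding Camk2g FPKM under the WT label and in 66.6% to 75.2% under the KO label. For Camk2d, the levels of Camk2d-226 overlapped between the groups (1.31 to 2.69 and 1.02 to 1.41 FPKM), and those of Camk2d-204 did not (1.46 to 2.19 and 0.691 to 1.09 FPKM). Camk2d-202 was at 1.66 FPKM in WT 2 and listed at 0 in the other libraries. Camk2d-219, a retained-intron transcript, was at 2.37 FPKM in WT 2 and at 0.335 to 1.12 FPKM elsewhere. Isoforms annotated as not protein-coding made up 26.9% to 45.9% of the Camk2d sum.

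Genes that act around these kinases were taken from 5 lists with 91 genes, of which 66 were tested. Of these 66, 5 were called higher under the KO label, 3 lower, and 58 were not called. That is 12.1%, beside 6.9% of all genes tested. The lists were chosen with earlier results of these data known, so nothing is read from this share. Adjusted p is from limma with Benjamini-Hochberg adjustment over the 12080 genes.

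Of the genes for calmodulin and the proteins that hold it in reserve, 6 of 8 were tested, 1 rose, 1 fell and 4 did not pass (median log2 fold change 0.33). Marcksl1, an actin- and calmodulin-binding protein, fell from 380 ± 24.4 to 214 ± 12.2 FPKM (log2 fold change -0.83, SE 0.09, adjusted p = 0.00844, limma).

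Of the related kinases and CaMKII inhibitors, 12 of 16 were tested, 1 rose, 1 fell and 10 did not pass (median 0.03). Camk2n1, which encodes a protein inhibitor of CaMKII, had 5.14, 4.92 and 6.30 FPKM in WT 1 to 3 and 8.90, 9.35 and 8.68 FPKM in KO 1 to 3. Its groups did not overlap, and Camk2n1 rose (log2 fold change 0.63, SE 0.12, limma adjusted p = 0.041). Eef2k, a calmodulin-dependent kinase that slows translation elongation, fell from 26.8 ± 3.25 to 17.9 ± 0.473 FPKM (log2 fold change -0.55, SE 0.11, adjusted p = 0.0433, limma). Both calls were lost on leaving out WT 1, WT 2, KO 1, KO 2 or KO 3 (highest adjusted p 0.14 for Camk2n1 and 0.139 for Eef2k), and the Marcksl1 call was kept without each library in turn. The CaMKI paralogs Camk1d and Camk1g had log2 fold changes of 0.59 and 0.53 and did not pass (adjusted p = 0.12 and 0.273, limma).

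None of the 11 tested genes for calcineurin, the CaMK phosphatases and NFAT factors was called in limma (median -0.08), and 1 had an unadjusted p under 0.05. The smallest p belonged to Nfatc1, a transcription factor activated by calcineurin, with 6.86 ± 0.611 and 5.05 ± 0.458 FPKM (adjusted p = 0.139, limma). Next was Rcan2, a calcineurin regulator, with 6.39 ± 3.38 and 2.40 ± 1.23 FPKM (SD, n = 3, adjusted p = 0.248, limma).

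Of the CaMK substrates and transcriptional effectors, 19 of 21 were tested, 1 fell, none rose (limma, 1 higher with an unadjusted p under 0.05) and 18 did not pass (median -0.01). Hdac5, a histone deacetylase that leaves the nucleus when CaM kinases phosphorylate it, had 31.0, 37.8 and 31.4 FPKM in WT 1 to 3 and 19.0, 20.5 and 20.5 FPKM in KO 1 to 3. The groups were separate, and Hdac5 fell (log2 fold change -0.71, SE 0.11, limma adjusted p = 0.0192). Its relatives Hdac4 and Hdac9 had log2 fold changes of 0.20 and -0.88 and did not pass (adjusted p = 0.521 and 0.0557). Creb1, a target of CaMKIV, was at 19.3 and 18.7 FPKM (adjusted p = 0.977, limma).

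Of the genes for calcium entry, stores and removal, 18 of 33 were tested, 3 rose, none fell (limma, 0 lower with an unadjusted p under 0.05) and 15 did not pass (median 0.30). Over all genes tested, 3.65% were called higher and 3.25% lower, with a median of -0.02. Mcu, the pore of the mitochondrial calcium uniporter, rose from 4.57 ± 0.456 to 8.90 ± 0.248 FPKM (log2 fold change 0.83, SE 0.11, adjusted p = 0.0151, limma). Itpr2, a calcium release channel of the endoplasmic reticulum, rose from 10.8 ± 1.23 to 20.1 ± 1.85 FPKM (log2 fold change 0.84, SE 0.12, adjusted p = 0.0182) and lies on chromosome 6. Cacna1h, a T-type voltage-gated calcium channel, rose from 12.6 ± 0.788 to 19.8 ± 1.26 FPKM (log2 fold change 0.61, SE 0.10, adjusted p = 0.0215). Itpr1, also on chromosome 6, had a log2 fold change of 0.80 and the plasma membrane pump Atp2b1 0.43. Neither passed (adjusted p = 0.0552 and 0.0623, limma). Of the 604 tested genes on chromosome 6, 83 were called higher and 8 lower. The part of the higher level of chromosome 6 in the Itpr1 and Itpr2 values was not tested. The calls of Hdac5, Mcu, Itpr2 and Cacna1h were each lost without KO 1, without KO 2 and without KO 3, and that of Cacna1h also without WT 1 (highest adjusted p 0.0718 to 0.0874). Across the 5 lists, 1 gene stayed called without KO 1, 1 without KO 2 and 1 without KO 3.

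**Figure D5:**
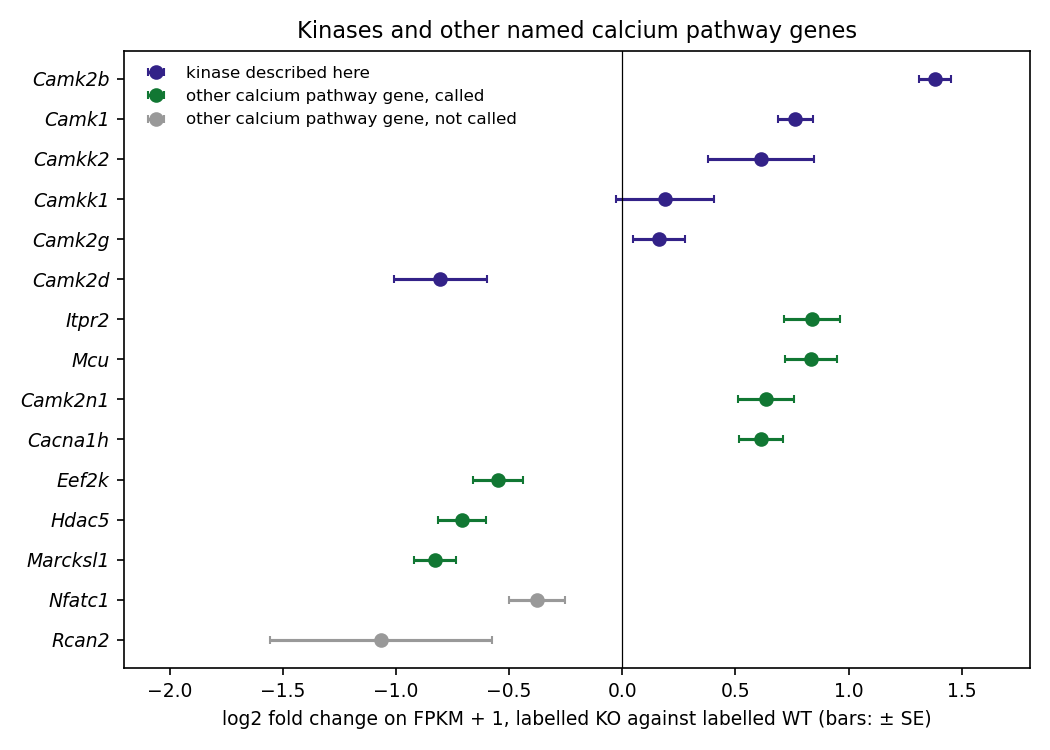
Log2 fold change on FPKM + 1 between the libraries labelled KO and labelled WT, with bars for ± SE, for the 6 tested kinases (blue), 7 called genes of the calcium lists (green) and 2 genes that were not called (grey). Camk2b has the largest value shown, 1.38, and Rcan2 the lowest, with the widest bar.

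The genes whose pattern over the 6 libraries was nearest to that of Camk2b were found by the root mean square distance between log2(FPKM + 1) profiles, each centred on its own mean, among 10969 genes. The nearest were Igfbp3, an IGF-binding protein, at 0.0399, Adamts14 at 0.0643, the lipoprotein receptor Vldlr at 0.0729, the adhesion molecule Chl1 at 0.0734 and the cell-cycle inhibitor Cdkn1a at 0.0827, where the median distance was 0.748. Igfbp3 had 67.0, 71.5 and 66.6 FPKM in WT 1 to 3 and 178, 170 and 173 FPKM in KO 1 to 3. Adamts14 was low, at 0.984 to 1.17 FPKM (WT label) and 4.41 to 4.65 FPKM (KO label). On the FPKM means it was 4.08-fold higher, against 2.66-fold for Camk2b, and adding 1 understates the change of such low genes. Chl1 lies on chromosome 6. All 5 were chosen for this likeness, so no test of their difference is given.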

How the data were processed

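The deposited table, made by the authors, gave FPKM per isoform and library, and coverage, a signal giving reads per base of each isoform. Per the submitters' processing notes, cutadapt, FastQC, Bowtie2, TopHat2 and StringTie were used. Versions and genome build are not given in the sources used here. Columns marked NT were matched to the WT labels by elimination and number, and 0 value columns were unused. Of the 68 kinase isoforms, 58 were in GENCODE M21 and 55 of these had identical coordinates.

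FPKM was summed per gene over isoforms matching a reference transcript or overlapping its exons (class codes 0, c, j, e and o). Genes with a mean of at least 1 FPKM were fitted with limma 3.58.1 (R 4.3.3, mean-variance trend) on log2(FPKM + 1), which understates the change of low genes. Calls used a Benjamini-Hochberg adjusted p under 0.05, and the fit was tested on simulated data. Figures used matplotlib and tables pandas.

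Members and lists were chosen with earlier results of these data known. The text names all members, up to 5 called genes of each list by p (2 where none was called), and the 5 genes most like Camk2b. Not everything picked out this way is reported here. Camk1d, Camk1g, Creb1, Hdac4, Hdac9, Itpr1, Atp2b1 and the marker genes, and the isoforms of the genes other than Camk2b beyond their highest, were named after their values were seen. Read numbers are coverage times length divided by 150. Alternatives were other pseudocounts, filters, scalings, isoform sums, a replicate block and leaving out each library.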

Additional observations from a re-analysis of the deposited data

How the results depend on the processing

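Camk2b and Camk1 kept a higher level in the libraries labelled KO, and Camk2d a lower one, under every alternative run (log2 fold change 1.28 to 1.46, 0.33 to 0.83 and -1.08 to -0.37). Camkk1 was reversed with every class code summed (-0.066). The genes called numbered 833 in all, 235 with reference transcripts only, 542 with every class code, 128 with the highest isoform only, 15 with a replicate block and 281 to 768 without each library (474 without WT 1, 497 without WT 3, 281, 283 and 301 without KO 1, KO 2 and KO 3). Of the kinases, which were chosen on this contrast, so that calls are no sign of stability, 2 were called in all, 1 with reference transcripts only, 1 with the highest isoform only, 0 with the block and 2 to 3 without each library (3 without WT 2). Of the calcium list genes, 8 were called in all, 5 with no filter on low values, 1 with reference transcripts only, 1 with the highest isoform only, 0 with the block and 1 to 8 without each library. Leaving out a library leaves fewer samples, and for the other settings the cause was not tested. With the block, limma still gave 2435 genes an unadjusted p under 0.05. The labels do not say that same-numbered libraries are paired. Their deviations from the group means had correlations of 0.0119, -0.0031 and 0.065, and those of differently numbered libraries ran from -0.0447 to 0.0332. With 3 libraries per group, these values cannot show whether same-numbered cultures share a batch. Low members are limited by depth: Camk2a rested on as few as 18 reads.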
